A study of Mus musculus with 2 samples.

Results

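The genes described here are 9 genes of B lineage commitment: Ebf1, Pax5, Cd79a, Cd79b, Vpreb1, Vpreb3, Igll1, Blnk and Pou2af1. They were taken by symbol from the 31053 genes that both count matrices list, and all 9 were present. Single-cell RNA was measured in 2 libraries of bone marrow cells from C57BL/6 mice of 8 to 12 weeks, sorted as viable cells that carried CD45 and CD127 and no lineage marker. The WT library came from LCR1+/+ animals and the KO library from LCR1-/- animals, and each pooled animals with as many males as females. The study's question was how ILC2, the type 2 innate lymphoid cells, develop without LCR1. The labels do not say which gene LCR1 controls, and no transcript was used here to check the deletion. With 1 library per genotype there is no replicate and no test between genotypes. All intervals below are 95% intervals that cover counting error only, not the variation between animals or library preparations. Those of levels and of their ratios treat each captured transcript as independent. They therefore also leave out the variation between cells, and are too narrow where a few cells hold most transcripts of a gene.

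B cells arise in the bone marrow from lymphoid progenitors that express the receptor Flt3, the interleukin 7 receptor (its alpha chain is CD127) and the DNA polymerase Dntt. Cells that carry the surface protein Ly6d and express the recombinase genes Rag1 and Rag2 are closer to the B lineage. The transcription factor Ebf1 starts the B cell programme together with Tcf3 and Foxo1, and Pax5 then holds cells in it. Their targets include Cd79a and Cd79b, the signalling chains of the B cell receptor, and Vpreb1 and Igll1, which form the surrogate light chain of the pre-B cell receptor. Vpreb3 encodes a related chaperone-like protein, Blnk the adaptor that links the receptor to its kinases, and Pou2af1 a coactivator of octamer-binding factors.

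The 9 genes lie at separate places in the genome except for 2. In the mm10 build Igll1 (chr16:16860671-16863985, minus strand) and Vpreb1 (chr16:16868403-16870843, minus strand) are neighbours, 4.418 kb apart. RefSeq promoters on GRCm38.p6, 250 bases before to 50 bases after the start of a gene, were found for 8 of the 9 genes. The promoters of Cd79a and Vpreb3 are shown because both genes rose together with Ebf1 between the 2 later progenitor stages. Those of the surrogate light chain genes Igll1 and Vpreb1 are also shown. Both are among the 8 members that rose at least 2-fold from the last of these stages to early B-like cells in each library. Capitals mark matches to 3 motifs, searched on both strands: CCCNNGGG (core of the EBF1 site), CAGGTG (an E-box of the kind that TCF3 binds) and ATTTGCAT (the octamer).
Cd79a, chr7:24897247-24897546, plus strand: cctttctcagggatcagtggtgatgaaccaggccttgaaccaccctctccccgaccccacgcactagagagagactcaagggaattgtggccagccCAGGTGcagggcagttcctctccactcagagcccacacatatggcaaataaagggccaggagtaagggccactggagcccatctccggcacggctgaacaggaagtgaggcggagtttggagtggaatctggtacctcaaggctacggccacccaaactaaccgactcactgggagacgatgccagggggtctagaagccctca
Vpreb3, chr10:75948050-75948349, plus strand: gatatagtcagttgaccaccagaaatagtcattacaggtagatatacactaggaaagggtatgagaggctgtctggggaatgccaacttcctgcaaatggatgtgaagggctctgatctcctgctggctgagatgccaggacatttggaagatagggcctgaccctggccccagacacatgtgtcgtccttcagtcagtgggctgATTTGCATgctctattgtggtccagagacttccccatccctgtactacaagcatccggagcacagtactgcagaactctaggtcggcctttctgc
Igll1, chr16:16863936-16864235, minus strand: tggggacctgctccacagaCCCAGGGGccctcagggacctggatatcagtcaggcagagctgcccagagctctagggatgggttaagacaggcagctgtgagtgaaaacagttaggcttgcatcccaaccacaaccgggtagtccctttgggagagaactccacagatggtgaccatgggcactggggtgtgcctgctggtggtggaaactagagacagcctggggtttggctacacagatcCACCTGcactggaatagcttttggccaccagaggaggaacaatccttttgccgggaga
Vpreb1, chr16:16869206-16869505, minus strand: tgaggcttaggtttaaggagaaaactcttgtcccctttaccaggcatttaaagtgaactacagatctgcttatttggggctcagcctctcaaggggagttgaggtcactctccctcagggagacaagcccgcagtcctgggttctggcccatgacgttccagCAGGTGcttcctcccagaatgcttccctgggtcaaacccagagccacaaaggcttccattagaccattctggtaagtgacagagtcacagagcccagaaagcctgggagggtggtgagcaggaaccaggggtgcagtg
The E-box stood 154 bases before the start of Cd79a, 88 before that of Vpreb1 and 8 before that of Igll1. CCCNNGGG stood 231 bases before the start of Igll1, and the octamer 45 bases before that of Vpreb3. Of the promoters not shown, that of Blnk held the E-box and the octamer. Those of Ebf1, Pax5 and Pou2af1 held no match to any of the 3 motifs. Of all 32851 RefSeq promoters of this length, 20.2% held the E-box, 13.7% CCCNNGGG and 1.74% the octamer. A match describes these letters in this window and is no evidence of binding. Vpreb1 and its copy Vpreb2 were 97.5% identical over 686 aligned transcript bases, so UMIs (unique molecular identifiers, 1 per captured transcript) can be lost or split between them and Vpreb1 levels are uncertain.

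Barcodes with at least 1000 genes and at most 10% mitochondrial UMIs were kept, 3290 in WT and 4343 in KO, with medians of 5371.5 and 7261 UMIs. No kept barcode occurred in both libraries. Cells were clustered without the 9 genes, and clusters were named from markers that include none of them. Lymphoid progenitor-like cells were those of 3 clusters (383 WT and 881 KO cells) and early B-like cells those of 1 cluster (27 and 32 cells), in which 11 of the 14 early B markers were at least 2-fold above the mean of the other clusters. One progenitor-like cluster (79 WT and 119 KO cells) was led by mitotic genes, with Ccnb1 and no progenitor marker among its 10 leading genes, and the main results were repeated without it. Every cell was thinned to 2000 UMIs, which left out 8 WT progenitor-like cells, and progenitor-like cells were divided by UMIs of Ly6d and of Rag1 or Rag2. Stage 1 was Ly6d-negative (239 WT and 523 KO cells), stage 2 Ly6d-positive and Rag-negative (118 and 276), stage 3 Ly6d-positive and Rag-positive (18 and 82) and stage 4 early B-like. Rag UMIs were not read in stage 1, so it can hold Rag-positive cells. Median depths of the stages were 15360 to 16971 UMIs in WT and 11894 to 14774 in KO. The gates read single UMIs, so some cells of stages 1 and 2 carry transcripts that were missed, and the stages are ordered by markers and not by time.

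Ebf1 and Blnk were the members found in the most progenitors after thinning. After thinning, Ebf1 was detected in 17.1% of WT progenitor-like cells (64 of 375, 13.4 to 21.3%) and 27.0% of KO ones (238 of 881, 24.1 to 30.1%), and Blnk in 21.6% (17.5 to 26.1%) and 22.4% (19.7 to 25.3%). Cd79b was in 10.9% of WT and 10.4% of KO progenitors, and Cd79a in 3.47% and 10.7%. The other 5 members were each in under 5% of progenitors in both libraries. Pax5 was in 1.87% (WT) and 2.95% (KO), Vpreb1 in 2.93% and 2.16%, Vpreb3 in 2.93% and 4.65%, and Igll1 in 2.13% and 0.568%. Pou2af1 was in 0 of 375 thinned WT cells, which by a limit of 3 counts allows up to 0.800% of cells with a UMI at this depth, and in 0.908% of KO cells. Without thinning the shares were 36.8% and 54.0% for Ebf1, 65.3% and 68.8% for Blnk, and 1.07% and 3.75% for Pou2af1. Cd79b was then in 158 WT cells, more than the 138 with Ebf1, and in 411 KO cells, fewer than the 476 with Ebf1.

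The same measure in classes that should lack these genes gave the background. In ILC2-like cells (791 WT and 755 KO cells, medians of 5310 and 4371 UMIs) thinned shares were 1.64% and 1.46% for Ebf1, 4.93% and 2.38% for Cd79b and under 1% for the other 7 members. NK or ILC1-like cells (153 and 583, medians of 6233 and 4940 UMIs) had Ebf1 in 1.96% and 1.20% and Cd79b in 3.27% and 2.40%. A low level of Cd79b transcripts therefore ran through classes outside the B lineage. Over all progenitors, the thinned shares of Pax5, Vpreb3 and Igll1 in WT, Igll1 in KO and Pou2af1 in both libraries lay under the larger of the upper bounds in these 2 classes. As shares of all progenitors they were not told apart from background. That does not show that the single cells with these UMIs lack expression. Plasmacytoid dendritic-like cells carried Blnk in 27.3% and 23.4% of cells, no smaller a share than in progenitors. They had Ebf1 in 5.71% and 6.83%, Cd79a in 2.24% and 2.07%, and Pax5 in 0.204% and 0.207%.

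**Figure D1:**
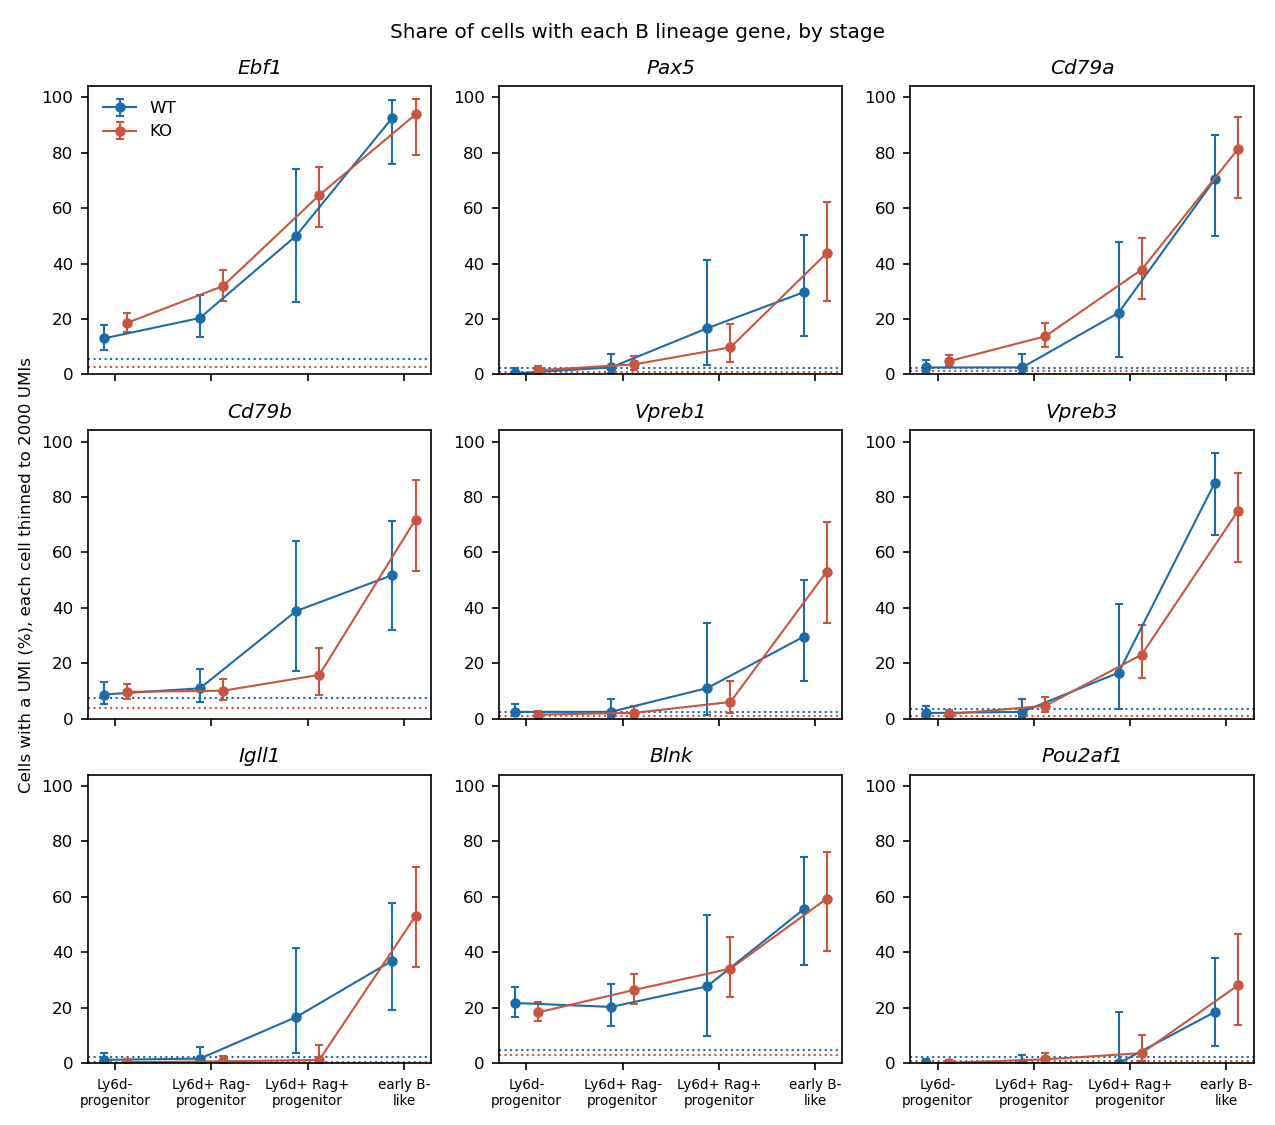
Share of cells with at least 1 UMI of each gene (vertical axis, percent) in the 4 stages (horizontal axis), in WT (blue) and KO (red), with every cell thinned to 2000 UMIs. Bars are exact 95% Clopper-Pearson intervals, and dotted lines are the upper bound of the background interval in each library. That bound is higher in WT, where fewer NK or ILC1-like cells were measured and the background shares of Cd79b were also higher. Ebf1 rose from 13.0% and 18.5% in stage 1 to over 90% in early B-like cells, whereas Pou2af1 stayed under 4% until the last stage.

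Of the 4 stages, early B-like cells had the largest share of cells with each of the 9 genes, and the shares in the earlier stages differed widely between genes. Ebf1 was detected in 13.0% of WT and 18.5% of KO stage 1 cells, in 20.3% and 31.9% of stage 2 cells, in 50.0% and 64.6% of stage 3 cells and in 92.6% and 93.8% of early B-like cells. The share was higher at each later stage in both libraries, and even the Ly6d-negative cells stood above background. Pax5 was in 0.418% and 1.53% of stage 1 cells, 2.54% and 3.62% of stage 2 cells, 16.7% and 9.76% of stage 3 cells and 29.6% and 43.8% of early B-like cells. It thus trailed Ebf1 at each stage in share of cells, although shares of 2 genes also differ with how many transcripts a cell holds.

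The receptor chains differed from each other. Cd79a was in 2.51% (WT) and 4.78% (KO) of stage 1, 2.54% and 13.8% of stage 2, 22.2% and 37.8% of stage 3 and 70.4% and 81.2% of early B-like cells. Cd79b began at 8.79% and 9.75% and was still at 11.0% and 10.1% in stage 2, then reached 38.9% and 15.9% in stage 3 and 51.9% and 71.9% in early B-like cells. The WT and KO intervals for Cd79b in stage 3 overlapped (17.3 to 64.3% and 8.72 to 25.6%), since stage 3 held 18 WT cells. Blnk was the flattest member, at 21.8% and 18.4% in stage 1, 20.3% and 26.4% in stage 2, 27.8% and 34.1% in stage 3 and 55.6% and 59.4% in early B-like cells.

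The surrogate light chain genes, Vpreb3 and Pou2af1 came late. Vpreb3 was in 2.09% (WT) and 1.72% (KO) of stage 1, 2.54% and 4.71% of stage 2, 16.7% and 23.2% of stage 3 and 85.2% and 75.0% of early B-like cells. Vpreb1 was in 2.51% and 1.53% of stage 1, 2.54% and 2.17% of stage 2, 11.1% and 6.10% of stage 3 and 29.6% and 53.1% of early B-like cells. For its neighbour Igll1 the shares were 1.26% and 0.382%, then 1.69% and 0.725%, then 16.7% (3 of 18) and 1.22% (1 of 82), and 37.0% and 53.1% in early B-like cells. Thinned WT progenitors had no Pou2af1 UMI in any stage, and in KO its shares were 0.191%, 1.45% and 3.66% in stages 1 to 3. The 0 of 18 WT cells of stage 3 allow, by the limit of 3 counts, up to 16.7% of cells with a UMI at this depth, and without thinning 5.56% had one. In early B-like cells Pou2af1 was in 18.5% and 28.1%.

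Onset was read as the first stage whose share exceeded the upper bound of the background interval. In WT that was stage 1 for Ebf1, Cd79a, Cd79b, Vpreb1 and Blnk, stage 2 for Pax5, stage 3 for Vpreb3 and Igll1, and stage 4 for Pou2af1. In KO it was stage 1 for 7 members and stage 2 for Igll1 and Pou2af1. The bound depends on the number of background cells and on their shares, which differed between libraries. An earlier stage in KO by this reading therefore does not show an earlier onset. The WT shares of Cd79a and Vpreb1 in stage 1 (2.51% each) barely passed the bound of 2.38%. A stricter reading, chosen after the values were seen, asked that the whole interval lie above the bound. In WT this left Ebf1 and Blnk at stage 1, Pax5, Cd79a, Cd79b and Igll1 at stage 3, and Vpreb1, Vpreb3 and Pou2af1 at stage 4. In KO it put Ebf1, Blnk, Cd79a and Cd79b at stage 1, Pax5 and Vpreb3 at stage 2, Vpreb1 at stage 3, and Igll1 and Pou2af1 at stage 4. Both readings and both libraries had Ebf1 and Blnk in the first stage, and neither put Igll1 or Pou2af1 there. The bound came from ILC2-like and NK or ILC1-like cells alone. Blnk was no less frequent in plasmacytoid dendritic-like cells than in progenitors, and a low level of Cd79b ran through classes outside the B lineage. For Blnk and Cd79b, stage 1 is therefore not told apart from expression in other classes.

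Levels were compared as CPM, the UMIs of a gene scaled to a fixed total of UMIs, summed over the cells of a stage. A gene was called past the rule of size where 2 sums differed at least 2-fold with an interval of the ratio that left out 1, with at least 50 UMIs over both and at least 50 CPM in the higher. From stage 1 to early B-like cells all 9 members passed it in both libraries, against 6.44% of the genes measured in WT and 8.31% in KO. Ebf1 went from 78.1 to 1951 CPM in WT and from 121 to 2325 CPM in KO, ratios of 25.0 (22.0 to 28.4) and 19.1 (17.5 to 20.9). Blnk moved least, from 105 to 303 CPM and from 107 to 357 CPM, ratios of 2.88 and 3.34.

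The steps between neighbouring stages were uneven. From stage 1 to stage 2 no member passed the rule in WT (0.976% of genes did) and 2 did in KO (0.189% of genes), Ebf1 at 2.46-fold (2.26 to 2.68) and Cd79a at 2.83-fold (2.35 to 3.42). From stage 2 to stage 3 the members past it were 4 in WT (1.84% of genes) and 5 in KO (0.607%). Ebf1, Cd79a, Cd79b and Vpreb3 passed in both, and Vpreb3 had the largest ratio of these, 13.8 (8.59 to 22.6) in WT and 7.06 (5.68 to 8.81) in KO. Pax5 passed in KO only, from 16.9 to 75.5 CPM, and went from 5.65 to 72.4 CPM in WT on too few UMIs for the rule. From stage 3 to early B-like cells 8 members passed in each library, all but Blnk (5.44% of genes in WT, 7.05% in KO). Igll1 was 7.65-fold higher (4.95 to 12.4) at this step in WT and 46.0-fold (25.2 to 93.5) in KO, and Vpreb1 8.98-fold and 13.4-fold.

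The WT values of the late genes in progenitors rested on very few cells. Of the 51 Igll1 UMIs in WT stage 1, 74.5% came from 1 cell and 94.1% from 2 cells, and 70.4% of the 81 Vpreb1 UMIs there came from 1 cell. In WT stage 3, 68.2% of Igll1, 70.7% of Vpreb3, 64.7% of Vpreb1 and 51.6% of Cd79a UMIs came from 1 cell each. These progenitor levels therefore describe single cells more than a stage, and the early B-like levels, in which no cell held over 16.3% of the UMIs of a member, are spread wider.

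**Figure D2:**
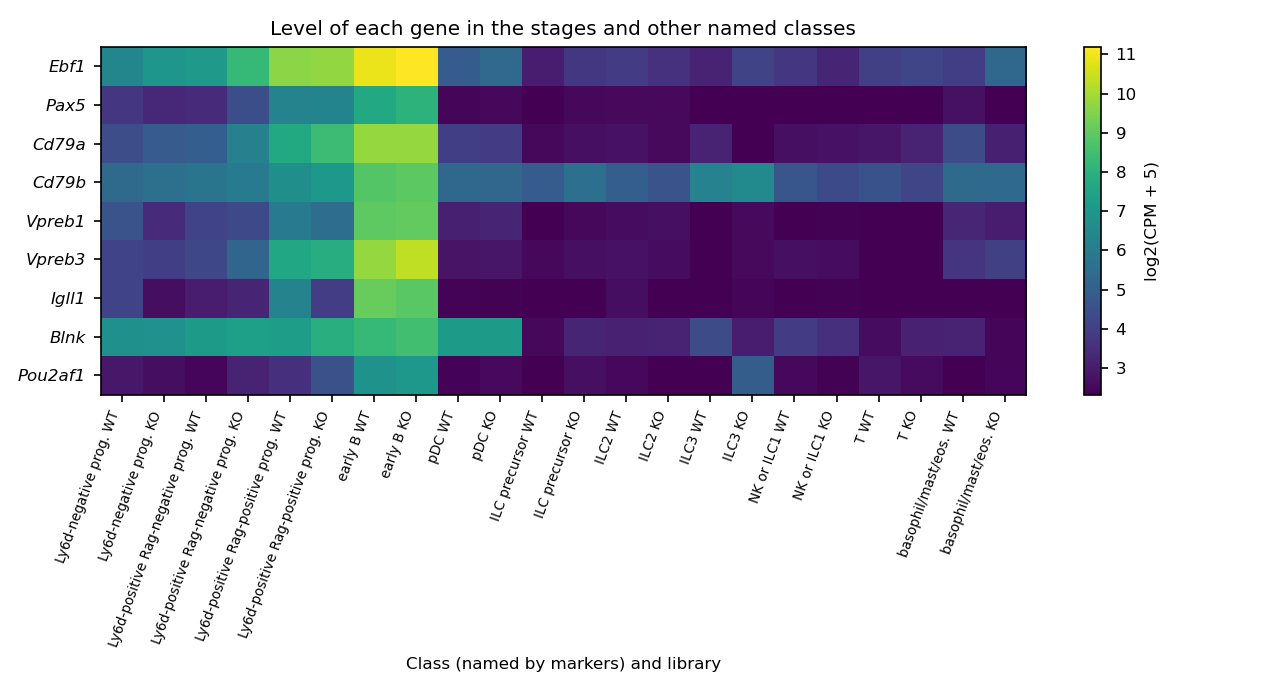
Level of each gene as log2(CPM + 5), in colour, in the 4 stages and 7 other named classes (columns, WT and KO side by side). The brightest columns are the early B-like cells, where Ebf1 reached 1951 and 2325 CPM, Blnk is also bright in plasmacytoid dendritic-like cells, and Cd79b is visible in every class.

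Cells with several members were mainly those of the last 2 stages. At least 3 of the 9 genes were detected after thinning in 3.35% of WT and 2.68% of KO stage 1 cells and in 3.39% and 9.06% of stage 2 cells. In stage 3 the shares were 27.8% and 30.5%, and in early B-like cells 85.2% and 93.8%. No ILC precursor-like, ILC2-like, ILC3-like, NK or ILC1-like or T-like cell had 3 of them. In the other named classes outside the B stages, 2 WT and 4 KO plasmacytoid dendritic-like cells, 1 WT plasma-like cell and 1 WT cell of the class with basophil markers did. Cells of the unnamed clusters were not counted. The mean number of members per cell went from 0.523 and 0.568 in stage 1 to 4.70 and 5.59 in early B-like cells.

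Within the progenitors most of the other members were more frequent in cells with Ebf1. Among thinned WT progenitors with an Ebf1 UMI, Cd79a was detected in 15.6% (10 of 64) against 0.965% of those without, Vpreb3 in 15.6% against 0.322%, and Igll1 in 10.9% against 0.322%. In WT the intervals overlapped for Pax5 (6.25% against 0.965%) and Vpreb1 (7.81% against 1.93%), and Pou2af1 had no UMI in either group. In KO the shares were 29.0% (69 of 238) against 3.89% for Cd79a, 15.1% against 0.778% for Vpreb3 and 9.24% against 0.622% for Pax5. Blnk was spread over progenitors with and without Ebf1, at 26.6% against 20.6% in WT and 26.1% against 21.0% in KO, with overlapping intervals. Cd79b was at 12.5% (5.55 to 23.2%) against 10.6% (7.42 to 14.6%) in WT and at 16% (11.6 to 21.3%) against 8.40% (6.37 to 10.8%) in KO, where the intervals did not overlap. Read on all UMIs, 22 of 23 WT and 74 of 76 KO progenitors with Pax5 also had Ebf1, compared with 33.0% and 49.9% of progenitors without Pax5. Every progenitor with Pou2af1 had Ebf1, 4 of 4 in WT and 33 of 33 in KO. These counts describe co-detection, which also grows with the depth of a cell.

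**Figure D3:**
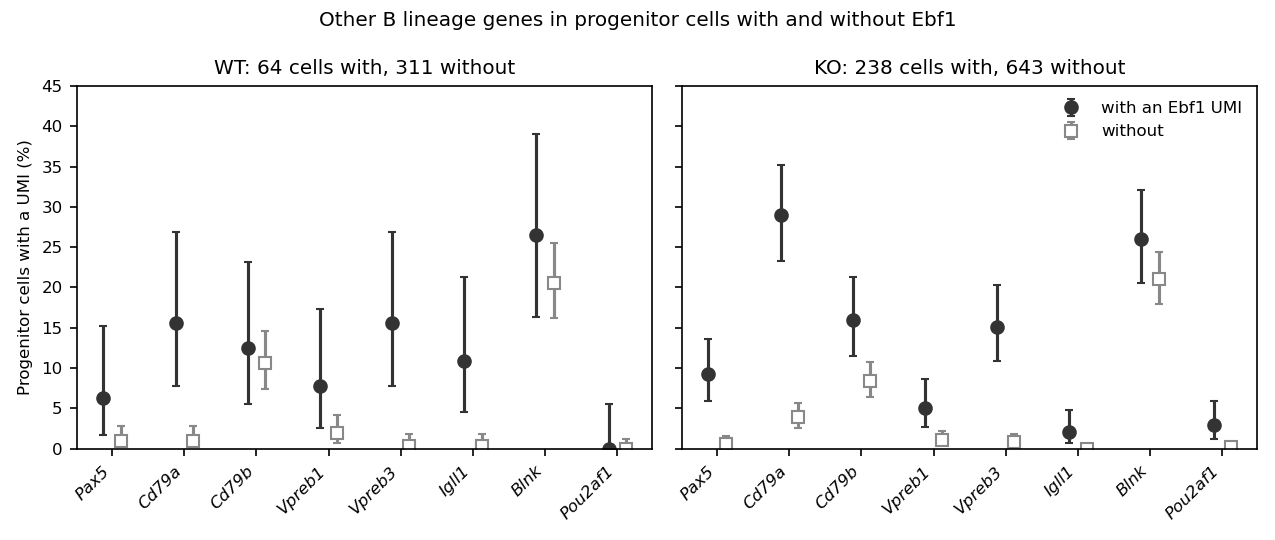
Share of progenitor-like cells with a UMI of each other member (vertical axis, percent), among cells with an Ebf1 UMI (filled circles) and without one (open squares), in WT and KO, all thinned to 2000 UMIs. Bars are exact 95% intervals, and Cd79a in KO (29.0% against 3.89%) and Vpreb3 in both libraries are clear of overlap, while Blnk is not.

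Between genotypes, the clearest differences were in stage 2, where Ebf1 and Cd79a were higher in KO. Ebf1 was at 130 CPM in WT (115 to 147) and 299 CPM in KO (282 to 316), a ratio of 2.29 (2.00 to 2.63). Cd79a was at 26.7 CPM (19.9 to 35.0) and 67.7 CPM (59.9 to 76.2), a ratio of 2.54 (1.88 to 3.48). These 2 of the 4 members that met the minimums passed the rule of size, against 0.726% of the genes measured being higher in KO and 0.302% lower. Cd79b (49.3 and 56.8 CPM) and Blnk (137 and 157 CPM) did not pass. The other 5 lay under the minimums, among them Pax5 at 5.65 and 16.9 CPM, Vpreb3 at 13.9 and 32.2 CPM, Vpreb1 at 12.3 and 14.4 CPM and Igll1 at 3.08 and 4.46 CPM. Pou2af1 had 1 UMI in WT and 17 in KO, a ratio of 8.21 (1.29 to 343). The median difference of the 9 genes on the log2(CPM + 5) scale was 0.74, which is the value of Pou2af1 with its 1 UMI in WT. That of all genes that met the minimums was -0.06. The 2 medians are not like for like, since 5 of the 9 genes did not meet the minimums.

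The stage 2 difference depended on which cells were called progenitors. In stage 2 the largest progenitor-like cluster accounted for 55 of 118 cells in WT and 200 of 276 in KO. Within that cluster alone the ratios were 1.79 (1.55 to 2.08) for Ebf1 and 1.72 (1.26 to 2.39) for Cd79a, and neither passed the rule. Without the mitotic cluster they were 2.19 and 2.16, and both did. When the 9 genes were kept for clustering, 20 of 27 early B-like cells in WT and 26 of 32 in KO fell into the progenitor class. That class then held 526 WT and 914 KO cells, in place of 383 and 881. The ratios were then 0.961 (0.880 to 1.05) for Ebf1 and 0.701 (0.603 to 0.816) for Cd79a, reversed in direction, and the members past the rule were Vpreb1 (0.356) and Igll1 (0.263), lower in KO. Markers of plasmacytoid dendritic cells (7 genes, 1 of them at 0 in each library) summed to 1631 CPM in WT and 1241 CPM in KO in this stage, and those of basophils, mast cells and eosinophils (9 genes, 1 and 2 at 0) to 159 and 62.7 CPM. The part of these in the difference was not tested. With 1 library per genotype, genotype and library cannot be told apart.

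**Figure D4:**
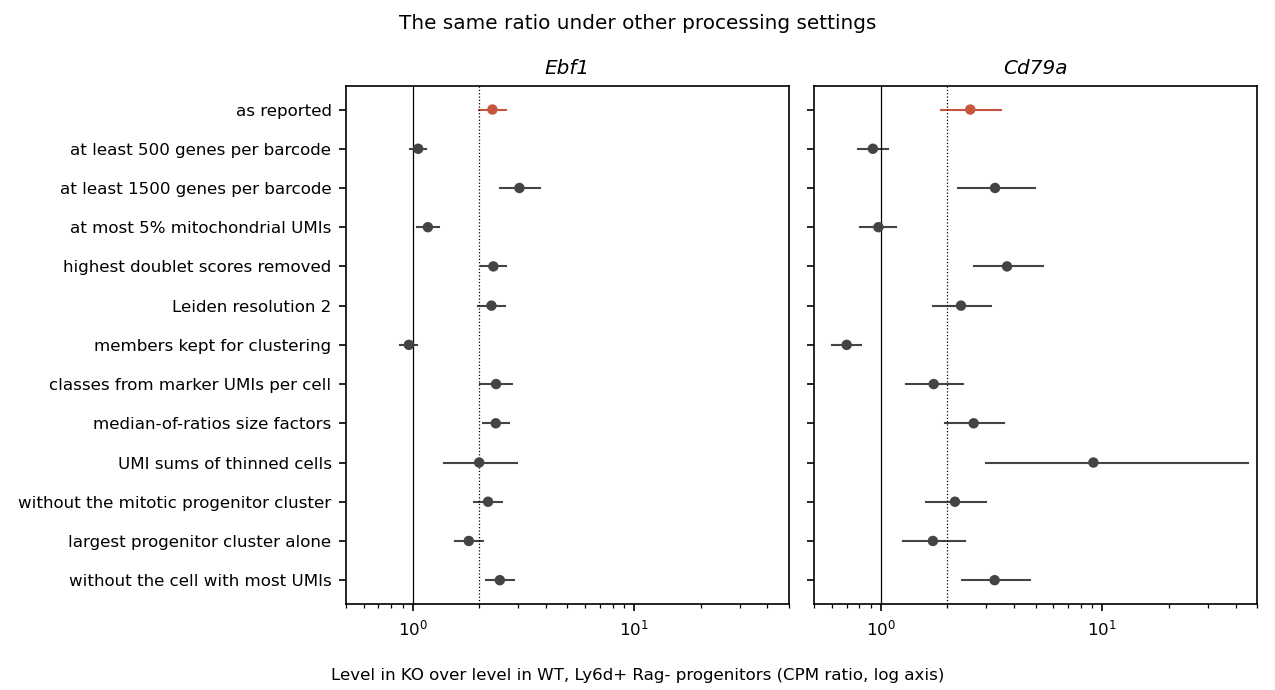
Ratio of the KO to the WT level of Ebf1 and Cd79a in Ly6d-positive Rag-negative progenitors (horizontal log axis) under each processing setting (rows), with 95% counting intervals. The dotted line marks 2-fold and the value reported is red, 2.29 for Ebf1 and 2.54 for Cd79a, while both ratios are close to 1 or below with 500 genes, with 5% mitochondrial UMIs and with members kept, settings in which WT progenitor-like cells number 1725, 811 and 526 and include early B-like cells.

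In the other stages no member passed the rule of size in either direction. In stage 1, Ebf1 was at 78.1 and 121 CPM, a ratio of 1.56 (1.37 to 1.77), and Blnk at 105 and 107 CPM, a ratio of 1.02 (0.905 to 1.14), against 0.408% of genes higher and 0.094% lower. The other 7 lay under the minimums of the rule. Of these, Igll1 (12.2 and 1.33 CPM, a ratio of 0.109, 0.0513 to 0.212) and Vpreb1 (19.3 and 5.43 CPM, 0.281, 0.191 to 0.409) lay lower in KO, with most of the WT UMIs in 1 cell each. Cd79a was at 16.2 and 23.9 CPM, Cd79b at 37.3 and 43.6 CPM, Pax5 at 8.12 and 5.07 CPM, Vpreb3 at 12.2 and 10.7 CPM, and Pou2af1 at 2.39 and 1.33 CPM. In stage 3 the 7 members measured ran from Vpreb1, at a ratio of 0.708 (0.395 to 1.33), to Cd79a, at 1.64 (1.25 to 2.18), with 2.61% of genes higher and 2.73% lower. Ebf1 was nearly level there, at 797 and 847 CPM, as was Pax5 at 72.4 and 75.5 CPM. Blnk was at 151 and 232 CPM (1.53, 1.11 to 2.15), Cd79b at 102 and 127 CPM, Vpreb3 at 191 and 227 CPM, and Pou2af1 at 6.59 CPM (2 UMIs) and 17.9 CPM (19 UMIs). Igll1 was at 72.4 CPM (22 UMIs, 15 of them in 1 cell) in WT and 10.4 CPM (11 UMIs) in KO, too few for the rule. With the UMIs of each gene in its top cell taken off in each library, Cd79a and Vpreb3 passed the rule in stage 3. They were then higher in KO by 1.59 and 1.74 on the log2 scale. This took from 1 of 18 WT cells but from 1 of 82 KO cells. The top WT cell of each of these genes held most of its UMIs. The step therefore lowered WT more, and by itself shows no difference between genotypes.

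In early B-like cells all 9 members were measured, and the libraries were close in their levels. The ratio of KO to WT ran from 0.861 (0.716 to 1.03) for Igll1 to 1.47 (1.29 to 1.66) for Vpreb3, and 1.81% of genes were higher and 1.36% lower past the rule. Ebf1 was at 1951 and 2325 CPM (1.19, 1.09 to 1.30), Cd79a at 884 and 878 CPM, Pax5 at 202 and 261 CPM, and Pou2af1 at 111 and 127 CPM. Cd79b was at 443 and 495 CPM, Vpreb1 at 503 and 533 CPM, Vpreb3 at 884 and 1295 CPM, Igll1 at 554 and 477 CPM, and Blnk at 303 and 357 CPM. Except for Ebf1 and Vpreb3, whose intervals lay above 1, the intervals of the members included a ratio of 1. Markers of ILC2 (10 genes, 2 and 6 of them at 0) summed to 270 CPM in WT and 20.1 CPM in KO in this stage. Those of NK or ILC1 cells (10 genes, 6 and 5 at 0) went the other way, at 82.4 and 118 CPM. The part of these in the member levels was not tested. With cells classed by their own marker UMIs instead of clusters, early B-like cells were 1.09% (0.355 to 2.53%) of staged WT and 1.15% (0.464 to 2.36%) of staged KO cells. Ebf1, Cd79a, Cd79b and Vpreb3 then passed the rule, higher in KO by 1.59, 1.21, 2.10 and 3.50 on the log2 scale. These differences rest on very few cells in each library. Over all progenitors together Cd79a passed the rule, at 28.3 and 61.7 CPM (2.18, 1.86 to 2.58), and Ebf1 did not, at 128 and 232 CPM (1.82, 1.68 to 1.97), where 0.528% of genes were higher and 0.0932% lower.

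**Figure D5:**
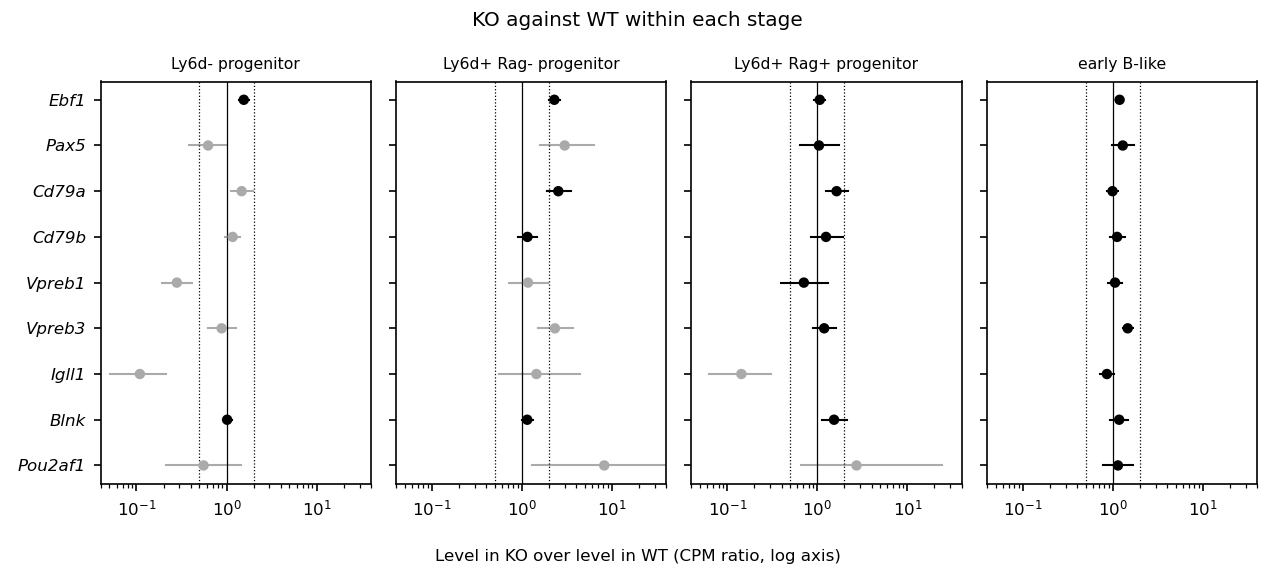
Ratio of the KO to the WT level of each gene (horizontal log axis) in each stage, with 95% counting intervals. Black marks genes that met the minimums of the rule of size and grey those without, the dotted lines mark 2-fold either way, and only Ebf1 and Cd79a in the Ly6d-positive Rag-negative stage are black and past 2-fold.

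The mix of stages also differed. Of the Ly6d-positive progenitors 13.2% in WT (18 of 136, 8.04 to 20.1%) and 22.9% in KO (82 of 358, 18.7 to 27.6%) were Rag-positive, with intervals that overlapped narrowly. The gate reads single UMIs, and without thinning stage 3 was 30% of staged cells in WT and 38.1% in KO, in place of 4.48% and 8.98%. Ly6d-positive cells were 36.3% and 40.6% of progenitors. The early B-like stage made up 6.72% of staged WT cells (4.47 to 9.62%) and 3.50% of staged KO cells (2.41 to 4.91%). Of all kept cells early B-like cells were 0.821% in WT and 0.737% in KO, and progenitor-like cells 11.6% and 20.3%. A sort on CD127 and against lineage markers sets all of these shares. Another 759 WT and 7 KO cells formed an unnamed shallow cluster (WT median of 2274 UMIs) in which 18.7% of the WT cells had Ebf1, and they are outside every share given here.

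Few other genes of the pathway passed the rule of size between genotypes. Over all measured genes 0.408% were higher and 0.094% lower in stage 1, 0.726% and 0.302% in stage 2, 2.61% and 2.73% in stage 3, and 1.81% and 1.36% in early B-like cells. Of 14 upstream and progenitor factors, 11 were measured in stage 2 and none passed the rule, and Foxo1, a partner of Ebf1, passed in stage 3 (32.9 and 87.8 CPM). Rag1 was higher in KO in stage 2 (29.3 and 58.7 CPM), a gene that the gates themselves read. Of 22 targets and partners of Ebf1 and Pax5, 6 were measured in stage 2 with none past the rule, although Mzb1 (29.3 and 56.5 CPM) and Chchd10 (71.3 and 121 CPM) lay higher in KO. In stage 3, Mzb1 was higher (69.1 and 168 CPM) and Irf8, a factor of myeloid and B cells, lower (491 and 211 CPM) among 8 measured. In early B-like cells 2 of 12 measured were higher in KO, the factors Lef1 (55.6 and 116 CPM) and Bach2 (82.4 and 210 CPM). Of 12 genes of pre-B cell receptor signalling, 9 were measured in stage 2 and none passed, and Vav1 was lower in stage 3 (79.0 and 37.7 CPM). Among 10 genes of other fates, 3 were measured in stages 1 to 3, and Hes1, a target of Notch signalling, was higher in KO in each, at 19.3 and 130, 31.8 and 247, and 13.2 and 247 CPM. In early B-like cells Hes1 was at 61.8 and 62.4 CPM.

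The genes with the pattern most like that of the 9 members were sought over 37 sums of cells, each a cluster in 1 library with at least 30 cells, by Pearson's r with the mean log2(CPM + 5) of the members. The 5 highest were Rsph9 (0.93), Dlg2 (0.92), Mzb1 (0.90), Cecr2 (0.90) and Vpreb2 (0.89). Among the members themselves Pax5 had the highest r with that mean (0.96) and Blnk the lowest (0.75). The points share libraries and only the KO early B-like cells reached 30 cells, so r describes mainly how far that 1 point stands above the others.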

How the data were processed

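Per the labels' protocols, libraries were made with 10x Genomics 3′ chemistry v3.1. The authors deposited raw counts of UMIs for every barcode. Cell Ranger 3.1.0 wrote them per the file headers, on mm10 per the submitters' processing notes, which also name Seurat. The sources used here do not give whether reads were downsampled between libraries. The libraries list 20293 (WT) and 8476 (KO) barcodes with 47883132 and 52137780 UMIs, and 75 barcodes occur in both.

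Kept cells were scaled to 10000 UMIs, log-transformed and clustered with scanpy 1.11.5 (2000 variable genes, 30 principal components, 15 neighbours, Leiden resolution 1). The 9 genes, Vpreb2, Id2 with genes near it, sex-linked, ribosomal and mitochondrial genes were left out, which gave 22 clusters. No doublets were removed: Scrublet marked 0 WT and 48 KO cells, which in WT counts as a failed call. Shares have exact Clopper-Pearson intervals and UMI sums exact Poisson intervals, and ratios have exact binomial intervals conditional on the summed UMIs. The 9 members were described in each stage. From each pathway list, genes were named among the 4 with the largest difference in a stage. The members, lists and stages were chosen with earlier results of these data known.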

Additional observations from a re-analysis of the deposited data

How the results depend on the processing

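No paired analysis was possible because each genotype has 1 library. Alternatives changed 1 choice at a time, and the settings without the mitotic cluster, with the largest cluster alone and without the top cell were chosen after seeing the data. The setting without the top cell took off only the UMIs of each gene in the cell with the most of them. Of 450 log2 differences between genotypes under alternatives, 422 kept their side of the rule of size, 6 fell short of it, 12 newly passed it and 10 reversed. The 422 overstate stability. They include 36 with a pseudocount of 1 CPM, which could not change because the rule uses no pseudocount. A change of sign short of the rule also counted as kept, and only Ebf1 and Cd79a in stage 2 passed the rule at the start. In stage 2, Cd79a went from 1.20 to -0.11 with 500 genes per barcode, -0.034 with 5% mitochondrial UMIs and -0.49 with the members kept for clustering. Ebf1 was at -0.057 with members kept, Vpreb1 (0.16) at -1.06 with 5% mitochondrial UMIs and -1.34 with members kept, and Igll1 (0.23) at -1.28, -1.49 and -1.72 in the same order of settings as Cd79a. In these 3 settings 13 WT and 13 KO, 14 and 15, and 20 and 26 early B-like cells fell into the progenitor class. The class itself went from 383 WT and 881 KO cells to 1725 and 992, 811 and 636, and 526 and 914, and which of these shifts the reversals follow was not tested. The median over the 9 genes (0.74) was -0.088, -0.034 and -0.47 in them, 1.61 with 1500 genes per barcode and 1.16 with a pseudocount of 1 CPM. Cd79a in early B-like cells went from -0.0090 to 1.21 with classes from marker UMIs, on very few cells.

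Of the members, 2 passed the rule in stage 2, Ebf1 and Cd79a. With 500 genes the count was 1, Igll1, lower in KO (0.364). It was 2 with 5% mitochondrial UMIs and with members kept, but these were Vpreb1 and Igll1, lower in KO (0.436 and 0.30, then 0.356 and 0.263). It was 1 with classes from marker UMIs (Ebf1) and with sums of thinned cells (Cd79a), 0 in the largest cluster alone, and 5, all higher in KO, with a minimum of 10 UMIs and no CPM minimum. The count of 0 in stage 1 became 1 with 1500 genes (Vpreb1, lower) or a 1.5-fold limit (Ebf1, higher) and 2 with the lower UMI minimum (Vpreb1 and Igll1, lower). That of 0 in stage 3 became 2 with 500 or 1500 genes (Vpreb1 and Igll1, lower), with 1.5-fold (Cd79a and Blnk, higher) or without the top cell (Cd79a and Vpreb3, higher), and 1 with members kept or with the lower minimum (Igll1, lower). In early B-like cells it became 4 with classes from marker UMIs, a setting that left very few early B-like cells. The 5 WT members above background in stage 1 became 3 with 5% mitochondrial UMIs, doublet scores removed, 1000 UMIs per cell or no mitotic cluster, 2 with 4000 UMIs, and 8 with members kept. The 6 in stage 2 became 3 with doublet scores removed, and the 8 in stage 3 became 3 with 1000 UMIs.

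Shares of staged cells moved with the depth at which the gates were read. For stage 1 (59.5% WT, 57.3% KO) they were 68.8% and 68.3% at 1000 UMIs and 36.1% and 37.2% without thinning, and KO was at 50.1% at 4000 UMIs. Stage 3 (4.48%, 8.98%) was at 2.44% and 2.74%, 30% and 38.1%, and 10.1% and 18.1% in these 3 settings. Stage 2 (29.4%, 30.2%) was at 22.2% and 25.4% at 1000 UMIs, and KO at 21.1% without thinning. With 1500 genes the 3 stages were 45.7%, 45.7% and 8.57% in WT and 43.6%, 38.1% and 18.3% in KO. With 5% mitochondrial UMIs, WT stages 1 and 2 were 53.2% and 42.2%, and KO stages 1 and 3 were 61.9% and 7.08%. Stage 2 was 34.8% and 34.2% with 500 genes, 34.9% and 26.8% with classes from marker UMIs (KO stage 1 64.0%), 34.5% in WT with members kept and 23.6% in WT without the mitotic cluster. Early B-like cells (6.72%, 3.50%) were 2.21% and 1.80% with 500 genes, 1.40% and 0.652% with members kept, and 1.09% and 1.15% with classes from marker UMIs. With 1500 genes or 5% mitochondrial UMIs no cluster was named early B-like. The share of stage 2 cells with Ebf1 (20.3%, 31.9%) was 32.0% in WT with members kept, and in KO 41.6% with 1500 genes and with 4000 UMIs, 26.4% with classes from marker UMIs and 47.2% without thinning. Stage 3 rests on 18 WT cells, which limits what its values can show.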

Other observations

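Plasma-like cells (6 WT and 5 KO) carried Cd79a and Pou2af1 with few or no UMIs of Ebf1 and Pax5. Cd79a had 7 UMIs in WT (225 CPM) and 32 UMIs in KO (281 CPM), and Pou2af1 at 193 CPM (6 UMIs) and 412 CPM (47 UMIs). Pax5 and Igll1 were at 0 in both libraries and Ebf1 had 1 UMI in each. These few cells do not show that Pax5 is absent, since 0 UMIs in WT allow up to 118 CPM.

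Pou2af1 was also present outside the B lineage. In the ILC3-like cluster (28 WT and 376 KO cells, led by MHC class II genes with Cd4 and Ccr6) it had 57 UMIs in 37 of the 376 KO cells, 25.8 CPM (19.5 to 33.4). The 28 WT cells had 0 UMIs, with an upper bound of 14.5 CPM. Pax5 and Cd79a were at 0 in these KO cells, and Cd79b was at 70.9 (WT) and 89.2 CPM (KO) in the cluster.

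An unnamed cluster of 759 WT and 7 KO cells held all 9 members in WT at low depth, with Ebf1 at 129 CPM in 18.7% of cells, Cd79a at 42.3 CPM, Vpreb3 at 43.3 CPM, Igll1 at 32.1 CPM and Pax5 at 16.3 CPM. No cell there had over 12 UMIs of Ebf1. Another unnamed cluster of 2 WT and 65 KO cells, led by Gm42418 and Lars2, had Ebf1 at 297 CPM in 58.5% of KO cells. Blnk was at 83.5 CPM there and Igll1 and Pou2af1 at 0.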
